A study of Mus musculus with 16 samples.

Results

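RNA of 34 skeletal muscle genes, which act in the sarcomere and in muscle metabolism, was measured in 16 brown adipose tissue (BAT) libraries, and its amount differed widely from mouse to mouse. The 34 genes were taken by name from 49066 genes, and all 34 had a mean of at least 1 TPM (transcript abundance corrected for length, in parts of a library total of 1000000). All mice were C57BL6/J, carried *Gdf15* fl/fl alleles, had been fed high-fat diet (HFD) for 12 weeks and were 18 weeks old. WT mice lacked Cre and KO mice also carried Ucp1-Cre, a transgene in which the *Ucp1* promoter drives Cre in brown adipocytes, so that the controls held the floxed alleles too. Each genotype had 4 males and 4 females, with 1 library per mouse, and a library is named here by its group and replicate number. The study asked what loss of *Gdf15*, a stress-induced cytokine, does to BAT in obese mice of both sexes.

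Skeletal muscle contracts by sliding thick filaments of myosin along thin filaments of actin, which are anchored at the Z-disc. Calcium released from the sarcoplasmic reticulum binds troponin and opens the thin filament, and creatine kinase and glycolysis supply ATP. Fast and slow fibres use different genes for myosin heavy and light chains, troponins and myosin-binding protein. Brown adipocytes share a *Myf5*-expressing precursor with skeletal muscle.

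Markers of brown fat were high in every library, as labelled. *Ucp1*, the uncoupling protein of brown adipocytes, lay between 2353 and 4423 TPM, and 17 brown adipocyte genes summed to 11481 to 22719 TPM. *Gdf15* was at 0.368, 0.690, 1.55 and 3.81 TPM in male WT 1 to 4 and at 0.0915, 0.0801, 0.255 and 0.272 TPM in male KO 1 to 4. In females it was at 0.0622, 0.311, 0.170 and 0.290 TPM in WT 1 to 4 and at 0.0794 TPM in KO 3 and listed at 0 in KO 1, 2 and 4, so that the groups did not overlap in males and overlapped in females. Mitochondrially encoded transcripts made up 34.5 to 59.8% of a library. In female WT 4 a single transcript that had no match in the gene annotation used here took 16.5% of the TPM, against 0.0266 to 0.0527% in the others.

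Sequence just upstream of the start sites is shown for 5 members, because muscle genes are known to be controlled through CArG boxes (bound by serum response factor), MEF2 sites and E-boxes (bound by MyoD and its relatives). The 250 bases before the start site were read from RefSeq for build GRCm38.p6, in which 25 of the 34 members had an entry. *Actn3*, *Mylk2*, *Tnni2*, *Tnnt3*, *Tcap*, *Neb*, *Myoz1*, *Myot* and *Ampd1* had none. *Acta1* (skeletal alpha-actin, chr8:123894776-123895025 on the minus strand), *Ldb3* (a Z-disc protein, chr14:34588682-34588931 on the minus strand) and *Myh4* (the myosin heavy chain of fast IIb fibres, chr11:67237562-67237811 on the plus strand) are shown because they were the 3 members with a CArG box. *Pvalb* (parvalbumin, a calcium buffer of fast fibres, chr15:78206401-78206650 on the minus strand) is shown for a MEF2 site, and *Myh7* (the slow myosin heavy chain, chr14:54994627-54994876 on the minus strand) as a slow gene with neither. Capitals mark CArG boxes and MEF2 sites.
Acta1: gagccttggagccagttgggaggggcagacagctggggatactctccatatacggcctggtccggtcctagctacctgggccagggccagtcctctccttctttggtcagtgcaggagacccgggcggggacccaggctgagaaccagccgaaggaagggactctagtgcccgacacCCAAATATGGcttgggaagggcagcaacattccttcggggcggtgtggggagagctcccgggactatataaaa
Ldb3: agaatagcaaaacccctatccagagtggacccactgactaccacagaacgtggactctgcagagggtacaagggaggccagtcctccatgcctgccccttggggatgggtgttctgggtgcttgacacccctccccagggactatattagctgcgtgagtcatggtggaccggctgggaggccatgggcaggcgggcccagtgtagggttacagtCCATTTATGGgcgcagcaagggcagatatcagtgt
Myh4: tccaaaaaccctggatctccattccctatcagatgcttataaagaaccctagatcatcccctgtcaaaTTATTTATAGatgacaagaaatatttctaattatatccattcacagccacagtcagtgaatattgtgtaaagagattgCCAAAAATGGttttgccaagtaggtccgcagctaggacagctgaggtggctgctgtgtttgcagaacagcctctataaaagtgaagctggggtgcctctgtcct
Pvalb: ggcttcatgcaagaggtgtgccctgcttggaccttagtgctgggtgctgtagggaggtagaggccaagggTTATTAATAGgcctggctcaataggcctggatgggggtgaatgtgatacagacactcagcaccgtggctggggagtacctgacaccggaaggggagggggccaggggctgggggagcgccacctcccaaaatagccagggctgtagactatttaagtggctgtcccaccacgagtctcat
Myh7: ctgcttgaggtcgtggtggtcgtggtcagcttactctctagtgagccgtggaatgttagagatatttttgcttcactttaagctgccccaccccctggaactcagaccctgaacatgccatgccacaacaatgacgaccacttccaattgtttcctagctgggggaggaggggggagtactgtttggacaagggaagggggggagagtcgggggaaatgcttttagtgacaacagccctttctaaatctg

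A CArG box was searched as CC, then 6 bases that are A or T, then GG, and was found in 3 of 25 members (12.0%) against 1.40% of 27025 promoters. A MEF2 site (a consensus of 10 letters with ambiguous positions) was found in *Myh1*, *Myh4*, *Pvalb*, *Ttn* and *Xirp2*, which are 5 of 25 (20%), against 3.01% of promoters. *Myh4* held both, without overlap between them. The E-box CANNTG was found in 20 of 25 members (80.0%) against 66.0% of promoters. These 3 patterns read the same on both strands, and a match is a description of letters only.

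The 34 genes together took 0.236, 0.330, 0.0529 and 0.0138% of the TPM in male WT 1 to 4 and 0.734, 0.0728, 0.405 and 0.0112% in male KO 1 to 4. They took 0.00969, 0.224, 0.0239 and 0.00888% in female WT 1 to 4 and 0.0111, 0.0108, 0.627 and 0.0703% in female KO 1 to 4. Each group therefore held libraries near the top and near the bottom of the range, and all 4 groups overlapped. The sum ran from 88.8 TPM in female WT 4 to 7338 TPM in male KO 1, an 82.7-fold range, whereas the sum of the brown adipocyte genes stayed within the range given above. All 34 members exceeded 1 TPM in 6 libraries (male WT 1 and 2, male KO 1 and 3, female WT 2 and female KO 3), and 4 members did so in female WT 1, female WT 4 and female KO 2. With mitochondrial transcripts left out of the total, the share was 0.0136 to 1.42%. In bulk tissue, fewer muscle cells and less muscle RNA per cell cannot be told apart.

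**Figure D1:**
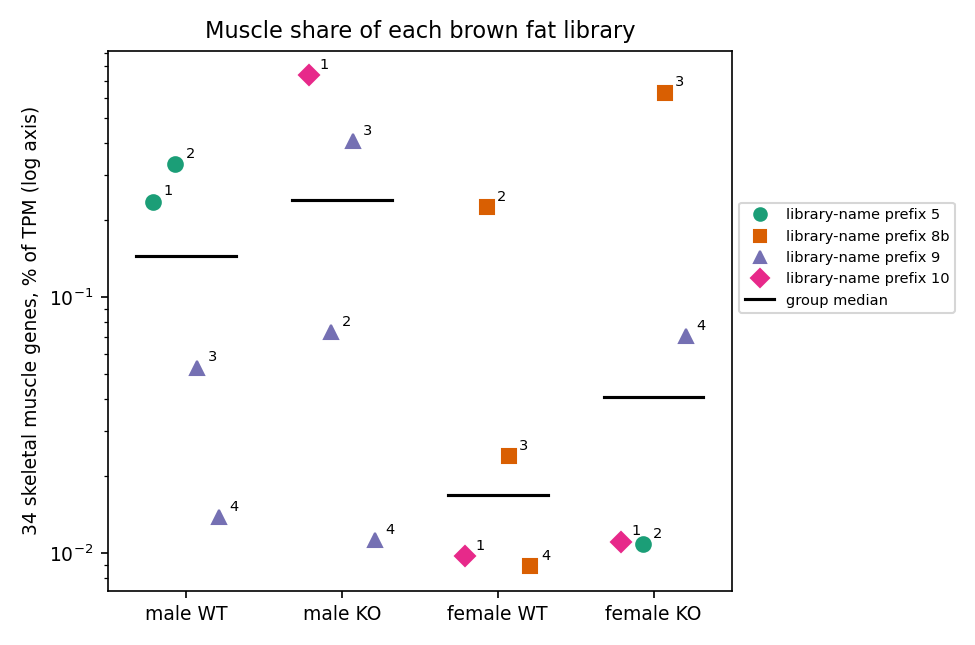
Summed TPM of the 34 skeletal muscle genes as a percentage of all TPM (log axis) in each of the 16 libraries, by group. Numbers beside the points are replicate numbers, symbols give the library-name prefix and horizontal lines are group medians. The 4 groups overlap, from 0.00888% in female WT 4 to 0.734% in male KO 1.

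*Ckm* (ENSMUSG00000030399, chromosome 7), the muscle creatine kinase that buffers ATP, had one of the widest ranges. It was at 277, 410, 46.4 and 2.92 TPM in male WT 1 to 4 and at 856, 72.5, 478 and 1.34 TPM in male KO 1 to 4. In females it was at 0.0697, 220, 14.4 and 0.118 TPM in WT 1 to 4 and at 1.09, 0.334, 703 and 74.7 TPM in KO 1 to 4. High and low libraries thus stood in each group, and 10 of the 16 libraries exceeded 10 TPM. Of the other genes of energy supply, *Ampd1*, the AMP deaminase of muscle, ran from 0 to 18.9 TPM. *Mb*, the oxygen store myoglobin, ran from 3.61 to 257 TPM and was above 3 TPM in every library.

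Thin filament genes summed to 2.25 TPM in female WT 1 and to 3194 TPM in male KO 1. *Acta1* (ENSMUSG00000031972, chromosome 8), which builds the filament itself, was the most abundant member by mean and made up 15.5% of all member TPM. It was at 308, 397, 63.3 and 4.43 TPM in male WT 1 to 4 and at 1237, 108, 696 and 2.59 TPM in male KO 1 to 4. In females it was at 0.207, 336, 16.7 and 0.277 TPM in WT 1 to 4 and at 2.32, 0.647, 1128 and 106 TPM in KO 1 to 4. These libraries took nearly the order of *Ckm*. The fast troponins *Tnnt3*, *Tnnc2* and *Tnni2*, which make the filament answer to calcium, reached 802, 520 and 481 TPM in male KO 1, and *Neb*, the ruler protein nebulin, reached 72.8 TPM there.

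Thick filament genes summed to 74.4 to 1469 TPM. *Myh4* was the most abundant myosin heavy chain with a highest value of 344 TPM in female KO 3, where *Myh1* (fast IIx) was at 80.2 TPM, *Myh2* (fast IIa) at 33.0 TPM and *Myh7* at 31.8 TPM. Reads of the closely related *Myh1*, *Myh2* and *Myh4* may be split between them, so their proportions are uncertain. *Mylpf*, the fast regulatory light chain, ran from 1.08 to 407 TPM, and the myosin-binding proteins *Mybpc1* (slow) and *Mybpc2* (fast) reached 67.7 and 39.7 TPM.

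Genes of the Z-disc and of titin summed to 4.31 to 423 TPM, led by *Tcap*, the titin cap, with 0 to 130 TPM. *Actn3*, the alpha-actinin of fast fibres, reached 107 TPM and *Myoz1*, a calcineurin-binding Z-disc protein, 68.4 TPM. *Ttn*, the giant spring protein titin, stayed at 0.00582 to 8.46 TPM. Genes of calcium handling summed to 0.362 to 1119 TPM. *Atp2a1*, the fast calcium pump of the sarcoplasmic reticulum, led them with 0.139 to 656 TPM, followed by *Pvalb* with 0 to 333 TPM, the calcium store *Casq1* with 0.107 to 90.8 TPM, the voltage sensor *Cacna1s* with 0 to 24.0 TPM and the release channel *Ryr1* with 0 to 15.1 TPM.

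**Figure D2:**
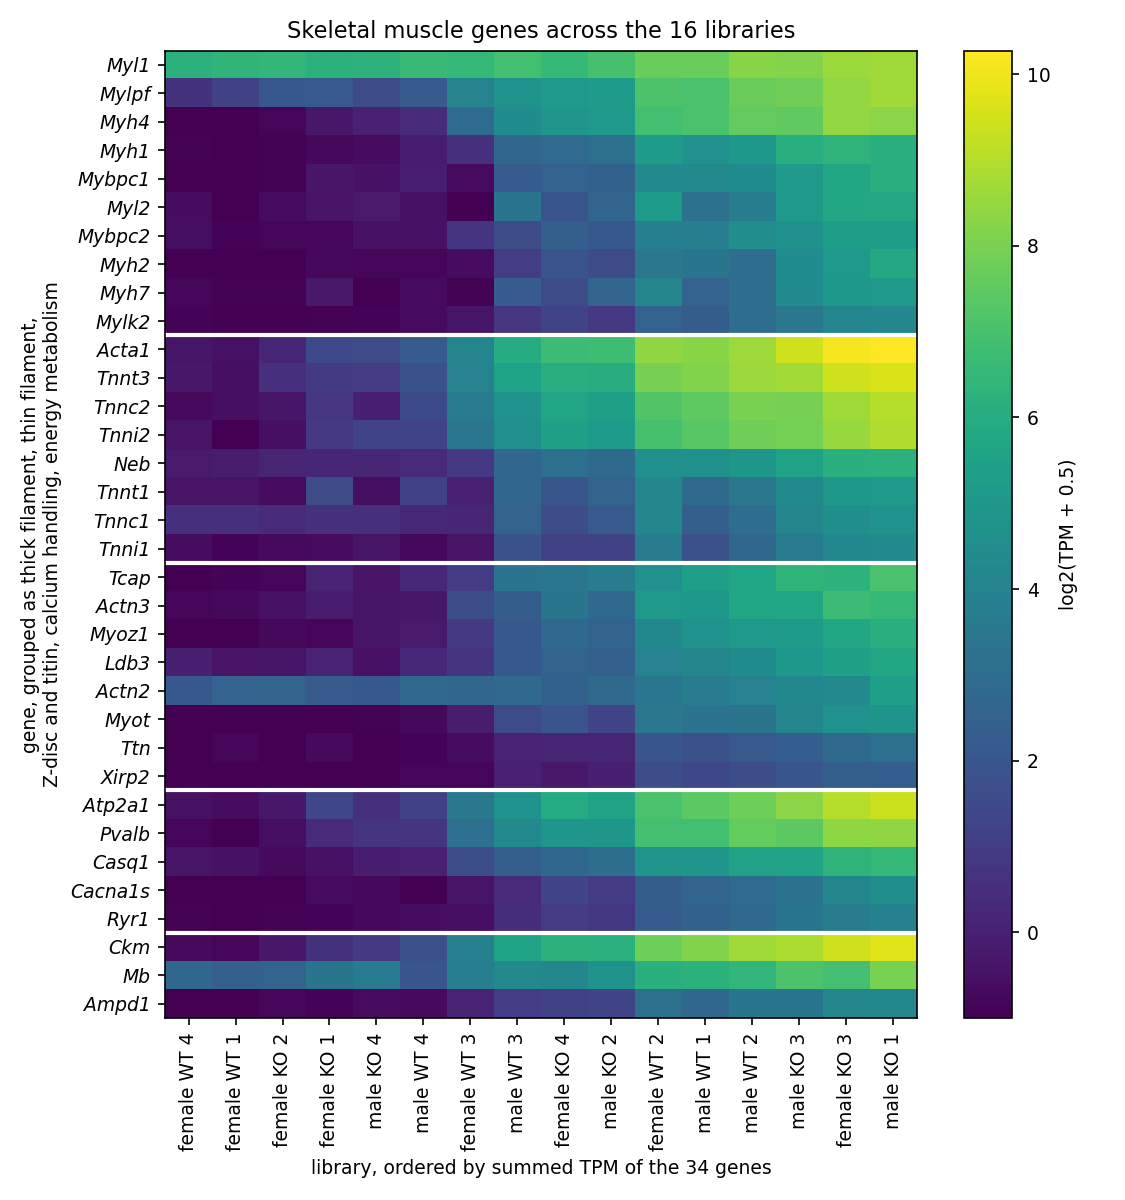
Levels of the 34 members as log2(TPM + 0.5) (colour) in the 16 libraries, ordered from the lowest summed TPM on the left (female WT 4) to the highest on the right (male KO 1). Rows are grouped by role, and nearly all members brighten together from left to right, with *Myl1* high throughout.

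The members rose and fell together across the libraries. Over the 561 pairs of members, Spearman's rho across the 16 libraries had a median of 0.962 and ran from 0.735 to 1, and it exceeded 0.9 in 449 pairs. The lowest pairs were led by *Actn2* with *Tnnc1* (0.735) and *Actn2* with *Tnni1* (0.768). These values are a description over libraries that share the same scaling. Because the members move as a block, the members in a count of directions are not independent of each other.

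Relative proportions were compared in the 10 libraries with *Ckm* of at least 10 TPM. The ratio of TPM to *Ckm* varied 1.28-fold for *Tnnt3*, 1.29-fold for *Myoz1*, 1.43-fold for *Tnni2*, 1.46-fold for *Myh4* and 1.51-fold for *Atp2a1*, while *Ckm* itself varied from 14.4 to 856 TPM. These fast and shared genes kept nearly fixed proportions. Other fast or shared genes varied more, such as *Xirp2* (2.68-fold), *Mylpf* (2.48-fold), *Myh1* (2.40-fold) and *Casq1* (2.13-fold). *Acta1* stood at 0.968 to 1.60 times *Ckm*. The ratios of the slow genes varied more still over the 10 libraries. They varied 67.3-fold for *Myh7*, 10.2-fold for *Mybpc1*, 6.92-fold for *Tnnc1*, 6.22-fold for *Tnni1* and 5.33-fold for *Tnnt1*. For *Myl2*, also a slow gene, the ratio ran from 0 in female WT 3 to 0.209 in male WT 3, so no fold is given. Among the remaining genes *Actn2* (15.2-fold), *Myl1* (13.6-fold), *Myh2* (6.06-fold) and *Mb* (5.58-fold) varied most. Several of these ranges rested on female WT 3. Without it the ratio varied 4.86-fold for *Myh7*, 1.76-fold for *Mybpc1*, 5.17-fold for *Actn2*, 5.39-fold for *Myl1*, 3.48-fold for *Myh2* and 2.44-fold for *Mb*, while the ranges of *Tnnc1*, *Tnni1* and *Tnnt1* did not change. The ratio of *Mylpf* was 1.11 in female WT 3 and 0.447 to 0.631 in the other libraries. That of *Casq1* was 0.184 in female WT 3 and 0.0866 to 0.130 in the others.

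Fast genes made up most of the fibre-type RNA in the libraries with *Ckm* of at least 10 TPM. Over all 16 libraries the 12 fast genes took 90.7 to 99.1% of the TPM of all 18 fibre-type genes. The fast share was 96.7, 96.9, 90.7 and 97.1% in male WT 1 to 4 and 94.6, 94.0, 94.2 and 97.8% in male KO 1 to 4. It was 98.5, 91.6, 99.1 and 98.0% in female WT 1 to 4 and 94.9, 98.7, 94.5 and 95.8% in female KO 1 to 4. The mean was 95.4% ± 3.1 (SD, n = 4) in male WT, 95.2% ± 1.77 in male KO, 96.8% ± 3.49 in female WT and 96.0% ± 1.90 in female KO, so that the differences between genotypes were smaller than the SD in either sex. In the 6 libraries with the least muscle RNA this share rested on *Myl1*, and without *Myl1* slow genes took 16.2 to 40.0% of a sum of no more than 20 TPM there. In female WT 1, female WT 4 and female KO 1, *Myh7* took 76.1, 55.2 and 41.5% of the 4 myosin heavy chains and slow genes 76.5, 66.1 and 48.8% of troponin TPM, with the heavy chains at 0.0286, 0.0950 and 0.872 TPM in all.

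Among libraries with *Ckm* of at least 10 TPM, the slow part differed. *Myh7* (ENSMUSG00000053093, chromosome 14) took 3.09 and 3.26% of the TPM of the 4 myosin heavy chains in male WT 1 and 2 and 12.8% in male WT 3. It took 7.02, 11.8 and 7.32% in male KO 1 to 3, 9.26% in female WT 2, 6.51% in female KO 3 and 6.11% in female KO 4. Female WT 3 stood apart with 0.234%: there *Myh7* was at 0.0198 TPM, *Myl2* (the slow regulatory light chain) was listed at 0 and *Mybpc1* was at 0.134 TPM, while the fast genes *Tnnt3* and *Tnnc2* were at 15.6 and 12.1 TPM. *Myh4* (ENSMUSG00000057003, chromosome 11) was the main heavy chain in all 10 libraries, with 62.3 to 85.8%. *Myh7* itself was at 5.34, 7.79, 4.29 and 0.136 TPM in male WT 1 to 4, at 33.9, 5.83, 21.4 and 0.0138 TPM in male KO 1 to 4, at 0.0217, 17.3, 0.0198 and 0.0525 TPM in female WT 1 to 4 and at 0.362, 0.0209, 31.8 and 2.58 TPM in female KO 1 to 4. The slow troponins told the same order in part, since slow genes took 13.2% of troponin TPM in male WT 3, 8.59% in female WT 2 and 2.31 to 7.20% in the other 8 libraries.

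**Figure D3:**
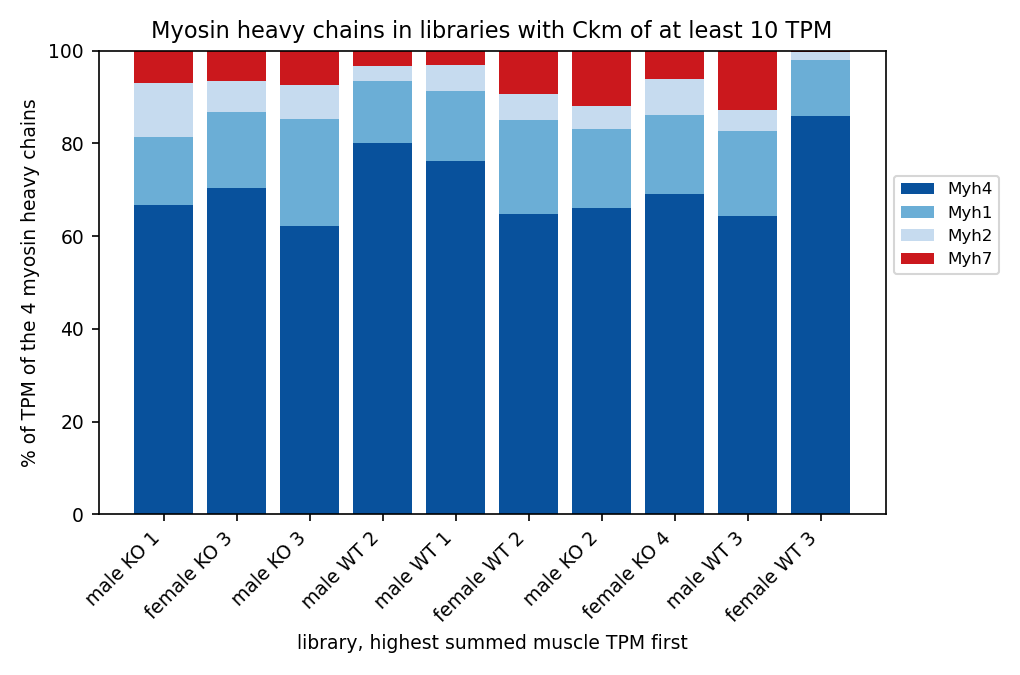
Shares of *Myh4*, *Myh1*, *Myh2* (fast) and *Myh7* (slow) in the summed TPM of these 4 myosin heavy chains, in the 10 libraries with *Ckm* of at least 10 TPM, ordered by summed muscle TPM. *Myh4* takes 62.3 to 85.8% in each bar and *Myh7* from 0.234% in female WT 3 to 12.8% in male WT 3.

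*Myl1* (ENSMUSG00000061816, chromosome 1), the alkali light chain of fast myosin, did not follow the pattern of near absence in low libraries. It was at 206, 312, 117 and 96.7 TPM in male WT 1 to 4 and at 400, 128, 287 and 78.7 TPM in male KO 1 to 4. In females it was at 81.6, 204, 91.9 and 72.9 TPM in WT 1 to 4 and at 74.6, 87.3, 380 and 94.4 TPM in KO 1 to 4. It varied 5.49-fold, against 5975-fold for *Acta1*, and made up 5.46% of member TPM in male KO 1 but 67.4 to 84.2% in the 6 libraries with the least. Without *Myl1* the summed TPM of the members ran from 15.3 to 6937 TPM, and the lowest library was female WT 1.

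The transcripts of *Myl1* behaved differently from each other. Myl1-202 was at 43.0 to 66.6 TPM in the 6 lowest libraries and reached 326 TPM in male KO 1. Myl1-206 stayed at 6.10 to 16.4 TPM in all libraries, and Myl1-201 ran from 0 to 44.8 TPM. *Actn2*, the alpha-actinin shared by slow and fast fibres and heart, showed a like division with a range of 3.74 to 40.1 TPM. Its coding transcript Actn2-201 rose from 0.249 to 26.4 TPM with the other members, while Actn2-205, annotated without a coding sequence, was at 2.85 to 6.46 TPM in the 6 lowest libraries. Over all libraries Actn2-205 ran from 0.0888 TPM in female KO 3 to 13.6 TPM in male KO 1. Another coding transcript, Actn2-203, was at 8.01 TPM in female KO 3, so the split between *Actn2* transcripts is uncertain. *Mb* also kept 3.61 to 11.7 TPM in those 6 libraries. The source of these levels in libraries that nearly lack *Ckm* was not tested.

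**Figure D4:**
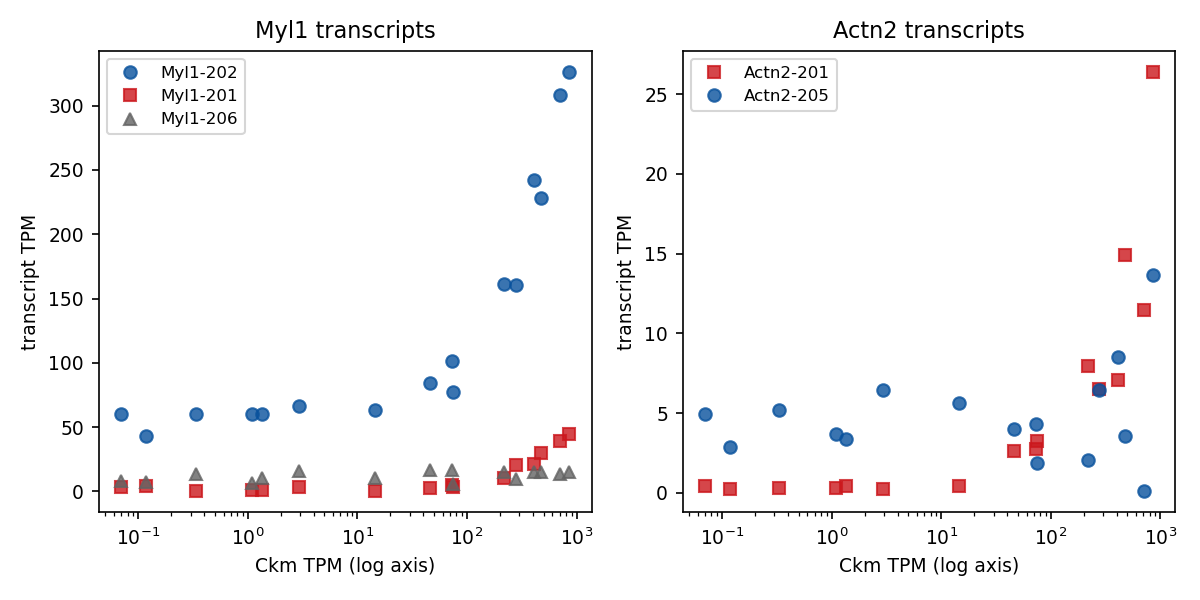
TPM of 3 *Myl1* transcripts (left) and 2 *Actn2* transcripts (right) against the TPM of *Ckm* (log axis), 1 point per library. Myl1-202 stays at 43.0 to 66.6 TPM where *Ckm* is below 10 TPM and reaches 326 TPM in male KO 1, and Actn2-205 does not follow *Ckm* while Actn2-201 does.

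Other genes followed the same libraries. Of 12210 genes with a mean of at least 1 TPM, 102 (0.835%) had a Spearman's rho of at least 0.9 with the summed TPM of the members, 31 of them members and 71 not, whereas the median of all genes was -0.02. The 10 highest that were not members were *Rpl3l* (0.994), *Cox6a2* (0.994), *Myo18b* (0.990), *Hrc* (0.988), *Itgb1bp2* (0.987), *Pgam2* (0.985), *2310002L09Rik* (0.985), *Hfe2* (0.983), *Eef1a2* (0.983) and *Klhl41* (0.979), and without the 2 libraries farthest from the median these values lay between 0.969 and 0.991. *Cox6a2* encodes a muscle form of a cytochrome oxidase subunit, *Rpl3l* a muscle form of a ribosomal protein and *Pgam2* the muscle phosphoglycerate mutase. *Cox6a2* ran from 0 to 71.8 TPM and *Pgam2* from 0.515 to 143 TPM. The 5 lowest were *Zfp236* (-0.815), *Cramp1l* (-0.779), *Ep400* (-0.768), *Ncbp3* (-0.765) and *Ccdc186* (-0.747), and no gene was at -0.9 or lower.

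Of 28 further sarcomere and triad genes, 24 had a mean of at least 1 TPM and 16 of these reached a rho of 0.9, among them *Tpm2*, the beta-tropomyosin, with 7.23 to 332 TPM. *Tpm3* (0.579) and *Casq2* (0.559), the calsequestrin of heart and slow fibres, were the lowest of the 24. Of 10 further genes of muscle metabolism, 5 reached 0.9, such as *Pygm*, the muscle glycogen phosphorylase, with 1.60 to 123 TPM, while *Fabp3*, a fatty acid binding protein that brown fat also makes, was at 717 to 1794 TPM with a rho of 0.212. On a list of stem cell and myogenic genes some were near 0: *Pax7* reached 0.0465 TPM, *Myf5* 0.0430 TPM, *Myod1* 0.581 TPM and *Myog* 0.642 TPM. *Myf6*, a regulator of mature fibres, reached 2.83 TPM, and the whole list summed to 26.1 to 107 TPM. Of the 17 genes on that list 4 had a mean of at least 1 TPM. Of these, 2 had a rho of at least 0.7 (highest 0.797) and none reached 0.9.

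Markers of heart, smooth muscle and other cell types followed the members less closely or not at all, by the size of their rho. Of 9 cardiac genes only *Myl4* had a mean of at least 1 TPM (2.22 to 7.54 TPM, rho 0.118), *Nppb* was listed at 0 in all libraries and *Myh6* reached 0.847 TPM. *Actc1*, the cardiac actin, had a rho of 0.750 at 0.0202 to 2.36 TPM. None of 9 smooth muscle genes, 17 brown adipocyte genes, 5 white adipocyte genes, 10 macrophage genes, 8 endothelial genes, 8 fibroblast genes and 5 Schwann cell or neuron genes with a mean of at least 1 TPM reached a rho of 0.9. The nearest were 2 smooth muscle genes, *Des* (0.774), which skeletal muscle also makes, and *Synpo2* (0.747). The median rho was 0.326 for smooth muscle, -0.10 for brown adipocytes, 0.265 for white adipocytes, 0.122 for macrophages, -0.01 for endothelial cells, 0.0529 for fibroblasts and 0.200 for Schwann cells and neurons. *Ucp1* had a rho of 0.0618, and *Ppargc1a*, a coactivator of thermogenic genes, had the lowest of the brown adipocyte genes with -0.647.

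Genotypes were compared separately in males and in females with limma on log2(TPM + 0.5), with Benjamini-Hochberg adjustment over all genes tested, to ask whether muscle RNA followed the genotype. No member passed the adjusted threshold of 0.05 in either sex, over both sexes together or in the difference between the sexes. In males 0 of 34 members were called, against 0.00821% of 12176 genes, and 0 had an unadjusted p under 0.05, against 18.7%. The median log2 difference of the members was 0.51, against 0.16 over the genes tested. The 5 members with the smallest p were *Mb*, *Tnnc1*, *Myh7*, *Myh2* and *Tnni1*, with *Mb* at a log2 difference of 1.12 ± 1.20 (SE, limma, adjusted p = 0.612). *Ckm* averaged 184 ± 193 TPM in male WT and 352 ± 396 TPM in male KO (SD, n = 4), a log2 difference of 0.40 ± 2.10 (SE, limma, adjusted p = 0.926), and an exact two-sided permutation test gave p = 0.829 (adjusted over 3 comparisons 0.829).

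In females 0 of 34 members were called, against 0% of 12141 genes, and 0 had an unadjusted p under 0.05, against 17.1%. The median difference was 0.99 for the members and 0.10 for all genes, with *Tnnt1*, *Cacna1s*, *Mybpc1*, *Tcap* and *Myh2* at the smallest p. *Tnnt1* differed by 1.14 ± 1.32 (SE, limma, adjusted p = 0.643), and *Ckm* by 1.48 ± 2.51 (SE, limma, adjusted p = 0.758), from 58.5 ± 108 TPM in WT to 195 ± 340 TPM in KO (SD, n = 4). The exact permutation test of *Ckm* gave p = 0.657 (adjusted 0.829).

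All 34 members had a higher mean in KO in each sex, as had 79.9% of the genes tested in males and 62.7% of those in females. No member had KO values wholly above the WT values, against 9.55% of genes in males and 4.89% in females, and none had them wholly below, against 0.673 and 3.19%. Markers of some other cell types were higher in KO beside the members, and their part in the result was not tested. The median over all genes tested was 0.16 in males and 0.10 in females. In males the median difference was 0.98 for macrophage genes (11 of 11 higher), 0.68 for fibroblast genes (8 of 8), 0.66 for smooth muscle genes (8 of 8) and 0.29 for endothelial genes (8 of 8), and 0 of these were called. Macrophage genes summed to 48.4 to 93.0 TPM in male WT and to 121 to 178 TPM in male KO. In females it was 0.77 for smooth muscle genes (9 of 9 higher), 0.75 for endothelial genes (8 of 8), 0.19 for macrophage genes (8 of 10) and 0.18 for fibroblast genes (7 of 8), and again 0 were called. Smooth muscle genes summed to 80.6 to 99.0 TPM in female WT and to 89.2 to 223 TPM in female KO. White adipocyte genes went the other way, with a median of -0.14 in males (1 of 5 higher) and -0.50 in females (2 of 5). Brown adipocyte genes had a median of -0.02 in males (8 of 17 higher) and 0.22 in females (12 of 17). Schwann cell or neuron genes had 0.21 in males (4 of 4 higher) and -0.03 in females (2 of 5).

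The direction of the members rested on single libraries. In males their median difference became -0.34 without male KO 1, -0.08 without male KO 3 and -0.41 without male WT 4, and it rose to 1.80 without male KO 4. In females it became -0.33 without female KO 3 and rose to 2.20 without female WT 2. The standard error of a member's difference had the size of the difference or more. It was 2.10 in males and 2.51 in females for *Ckm*. For members with so wide a spread a change of several-fold in either direction was not detectable with 4 mice in a group. The standard error was smaller for *Myl1* (0.548 in males and 0.528 in females) and *Actn2* (0.645 and 0.462).

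Over both sexes 0 of 34 members were called, against 2.93% of 12210 genes, with a median difference of 0.74 (all genes 0.13), and all 34 were higher in KO, as were 75.5% of genes. Without female KO 3 the median fell to 0.09, under the 0.15 of all genes, with 26 of 34 higher, and over all libraries left out in turn it ran up to 1.36, without male KO 4. *Myh2* had the smallest p with 1.10 ± 1.12 (SE, limma, adjusted p = 0.557), followed by *Cacna1s*, *Myh7*, *Mb* and *Tnnc1*. Of the muscle lists beside the members, *Tpm3* (0.52 ± 0.12, limma adjusted p = 0.0370) was the 1 gene called of 24 sarcomere and triad genes and *Chrnb1*, a subunit of the acetylcholine receptor (0.67 ± 0.13, limma adjusted p = 0.0235), the 1 called of 4 stem and myogenic genes. Both were higher in KO, both were named after their values were seen, and both followed the members weakly (rho 0.579 and 0.203). Over both sexes 3 of 10 macrophage genes (*Cd68*, *C1qa* and *C1qb*), 2 of 8 endothelial genes (*Cdh5* and *Tie1*), 2 of 8 fibroblast genes (*Col1a2* and *Pi16*) and 1 of 9 smooth muscle genes (*Smtn*) were called, all higher in KO. Of 17 brown adipocyte, 5 white adipocyte and 5 Schwann cell or neuron genes 0 were called. The KO effect in females minus that in males had a median of 0.34 over the members (all genes -0.06) and was above 0 for 29 of 34 members and 42.9% of genes, 0 of 34 were called against 0% of genes, and the smallest adjusted p was 0.876 for *Tnnt1* (limma). This median ran from -0.82 to 1.52 when 1 library was left out and was below 0 in 6 of 16 cases. Without female KO 3 it was -0.82 and without male KO 4 -0.76, with 0 of 34 members above 0 in both.

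Females had less muscle RNA than males by the group means, but the difference was not larger than the spread between mice. The muscle share was 0.232% ± 0.252 in males and 0.123% ± 0.216 in females (SD, n = 8). On the log2 scale all 34 members were lower in females with a median of -1.53 (all genes -0.08), where 32.3% of all genes were higher in females. In this comparison 0 of 34 members were called, against 4.48% of genes, and 0 had an unadjusted p under 0.05, against 21.3%. *Tcap*, *Actn2*, *Ckm*, *Tnni2* and *Acta1* had the smallest p, with *Tcap* at -2.32 ± 1.33 (SE, limma, adjusted p = 0.336) and *Ckm* at -2.95 ± 1.79 (SE, limma, adjusted p = 0.372). The exact permutation test of *Ckm* gave p = 0.137 (adjusted 0.411). The median stayed below 0 when any 1 library was left out, from -2.16 to -1.10.

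**Figure D5:**
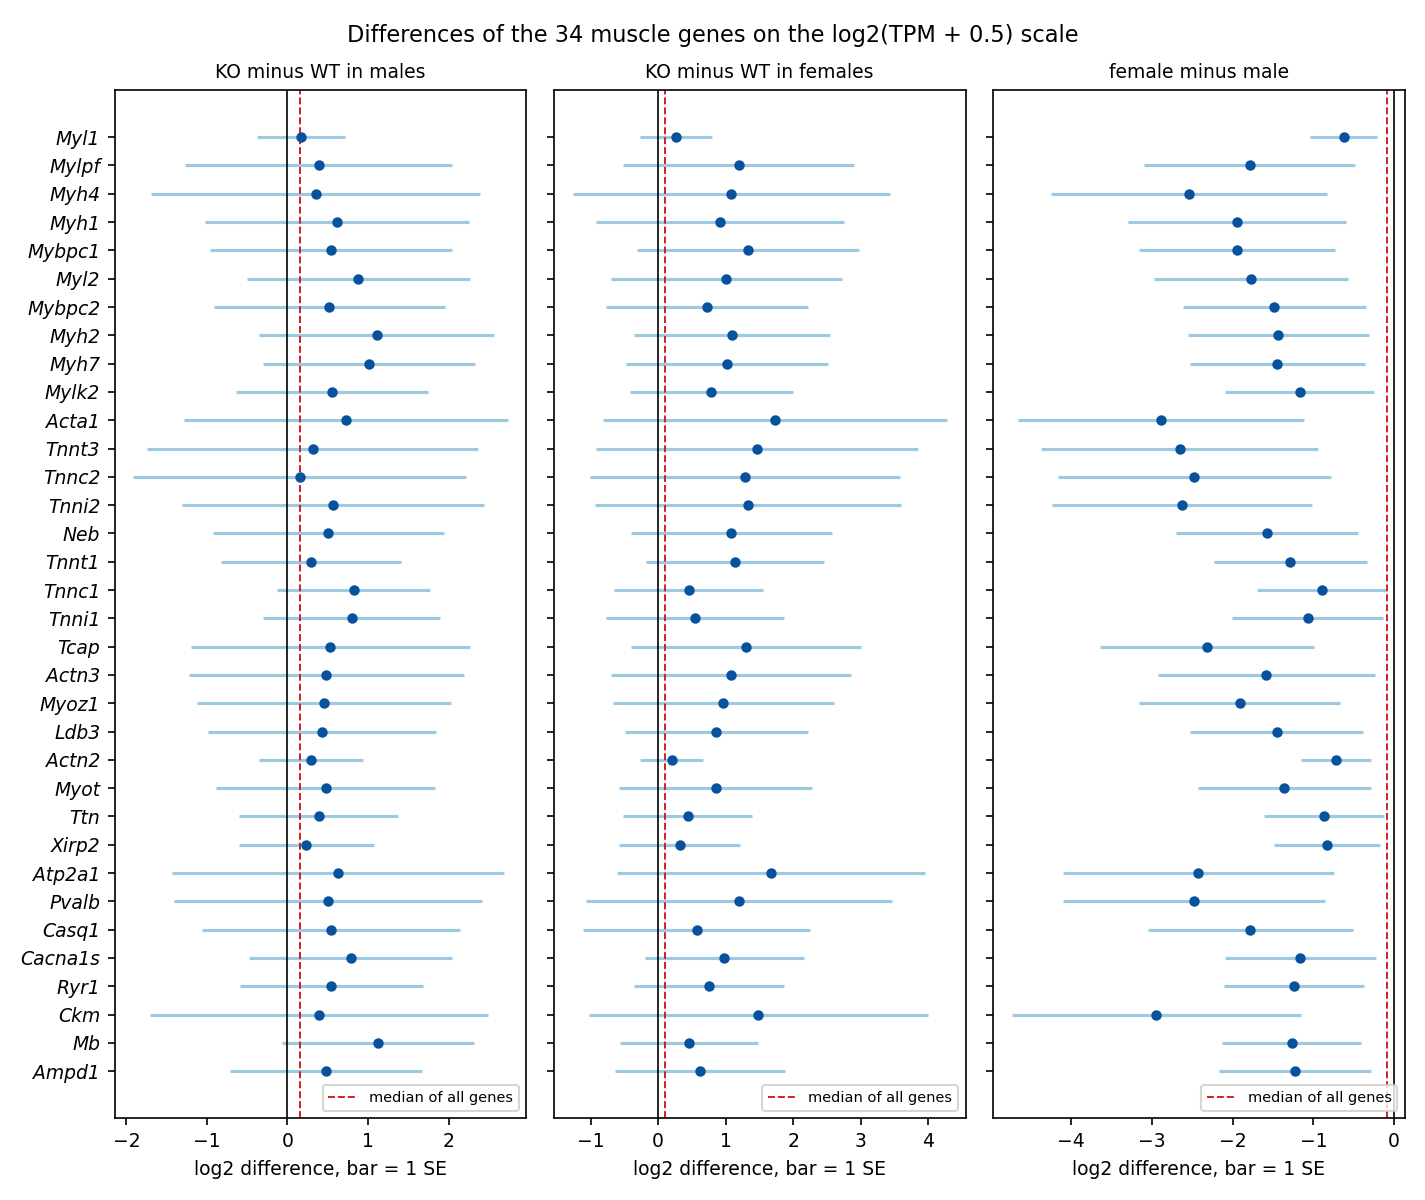
Log2 differences of the 34 members for KO minus WT in males, KO minus WT in females and female minus male, on the log2(TPM + 0.5) scale. Points are limma estimates, bars are 1 SE and the dashed line is the median of all genes tested. No member passed an adjusted p of 0.05 in any panel.

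The library names carry a prefix (5, 8b, 9 or 10) whose meaning the labels do not give, and it is spread unevenly over the groups. Prefix 5 held male WT 1 and 2 and female KO 2, prefix 10 held male KO 1, female WT 1 and female KO 1, prefix 8b held 4 female libraries and prefix 9 held 5 male libraries and female KO 4. Each prefix contained both high and low libraries: the muscle share ran from 0.0108 to 0.330% in prefix 5, from 0.00888 to 0.627% in prefix 8b, from 0.0112 to 0.405% in prefix 9 and from 0.00969 to 0.734% in prefix 10. Across the prefixes 0 of 34 members were called, against 0.00819% of genes, and 2, *Myl1* and *Actn2* (limma, adjusted p = 0.494 for both), had an unadjusted p under 0.05, against 9.90%. Without female KO 4, the only female library of prefix 9, 29 of 34 members had one, against 11.8% of genes, and still 0 were called.

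Within prefixes 5 and 10 the males lay above the females. In prefix 5 the share was 0.236 and 0.330% in the males, both WT, and 0.0108% in the female, a KO. In prefix 10 it was 0.734% in the male, a KO, and 0.00969 and 0.0111% in the female WT and KO. Sex and genotype were thus mixed in prefix 5. In prefix 9 the female KO library, at 0.0703%, lay inside the range of the males, and prefix 8b held females only. With the prefix as a covariate the median difference between females and males moved from -1.53 to -4.10 and all 34 members had an unadjusted p under 0.05, against 12.4% of genes, but the smallest adjusted p was 0.151 in limma. Prefixes 5 and 10 held 3 libraries each and prefix 9 a single female library, so this adjusted difference rested on few libraries. Within prefix 9 the male WT libraries were at 0.0529 and 0.0138% and the male KO libraries at 0.0728, 0.405 and 0.0112%. Within prefix 8b the female WT libraries were at 0.224, 0.0239 and 0.00888% and the female KO library at 0.627%, and within prefix 10 the single female WT and KO libraries were at 0.00969 and 0.0111%.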

How the data were processed

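RNA sequencing of BAT from 16 mice was analysed. Stranded mRNA libraries were made by the authors, who assigned single-end reads with kallisto 0.46.2 (build GRCm39 in the submitters' processing notes, annotation release not given in the sources used here) and deposited transcript TPM values, scaled by the authors to a sum of 1000000 per library. Their DESeq2 test needs counts and was not run here. TPM keeps no depth, so no counting interval is given. Whether same-group samples share a litter or cage is not stated, so p-values measure the spread between these samples. The paper describes the WT mice as littermate controls of the KO mice. Which mice shared a litter is not given, so the tests had no litter term.

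Transcripts were matched without version to GENCODE mouse release 21 (135051 of 137438) and summed per symbol. That release is on another build, so coordinates are given only for the RefSeq upstream regions, on GRCm38.p6. Genes averaging at least 1 TPM were tested on log2(TPM + 0.5) with limma 3.58.1 (trended eBayes, R 4.3.3) with Benjamini-Hochberg adjustment at 0.05. Fold changes on this scale understate low genes. Groups came from the labels. Prefix tests had groups in the model. The procedure was tested on simulated data in which genes varied independently. That test does not cover genes that move as a block, as the members do. Same-numbered libraries did not deviate together, so replicate numbers were not taken as pairs.

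The members and lists were chosen with earlier results of these data known. Every member could be named, with up to 5 members of the smallest p in each direction of a comparison, and among other genes those of the lists, *Gdf15*, and the 10 highest and 5 lowest by Spearman's rho with the summed member TPM. The alternatives were other pseudocounts, TPM minima and scalings, removal of mitochondrial transcripts, no trend, a replicate block, a prefix covariate, other member and fibre-type lists and leaving out each library.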

Additional observations from a re-analysis of the deposited data

Results flagged for a closer look

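Of 164 groups of 4 libraries tested for a value far from the others, 17 held one. Chance gives about 1 in 20 only for values that follow a normal distribution, which was not checked. The measures share libraries and are not independent. Members were examined as log2(TPM + 0.5), shares as percentages without a log. A high muscle share stands farther apart as a percentage than it would on a log scale.

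Female WT 2 held most of them. Its muscle share of 0.224% stood apart from 0.00888 to 0.0239% in the other female WT libraries, and its fast share of 91.6% from 98.0 to 99.1%. Slow genes led the members that stood apart there: *Myh7* at 4.15 (others -0.94 to -0.86), *Myl2* at 5.14 (others -1 to -0.60), *Mybpc1* at 4.40 (others up to -0.66), *Tnnc1* at 4.20 (others 0.19 to 0.53), *Tnni1* at 3.78 (others -0.88 to -0.40) and *Tnnt1* at 4.20 (others -0.42 to 0.04). *Myh2* at 3.48, *Ttn* at 2.01, *Ryr1* at 2.29 and *Xirp2* at 1.72 stood apart in that library as well. On this scale -1 is the floor of 0 TPM. In the other female WT libraries *Myl2*, *Mybpc1* and *Myh7* were at no more than 0.158, 0.134 and 0.0525 TPM. The added 0.5 draws such low values together, which widens the relative gap to female WT 2.

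In female KO 3 the muscle share was 0.627% against 0.0108 to 0.0703% in the other female KO libraries, and *Myl1* was at 8.57 against 6.23 to 6.57. In male WT 3 the fast share was 90.7% against 96.7 to 97.1% in the other male WT libraries. *Myl2* was lowest in male WT 4 at -0.48, against 3.26 to 3.75. The transcript without a match in the annotation took 16.5% of TPM in female WT 4, against 0.0327 to 0.0482% in the other female WT libraries. No cause of these values was tested.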

How the results depend on the processing

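The number of members called was 0 in all 6 limma comparisons under every alternative run. With the replicate number as a block it was also 0 in each. The numbers do not pair the mice, since the correlation of same-numbered deviations ran from -0.117 to 0.349. Leaving out 1 library kept the count at 0 throughout. It turned the sign of *Ckm* in males (-1.02 to 2.25, below 0 without male KO 1, male KO 3 or male WT 4), in females (-0.33 to 3.23, below 0 without female KO 3) and in the difference between the sexes (-0.76 to 2.83, below 0 without female WT 1, female KO 3 or male KO 4). For females minus males *Ckm* stayed between -3.87 and -2.23. Without female WT 2, female KO 3, male KO 4 or male WT 4, 6, 11, 9 and 1 of 34 members reached an unadjusted p under 0.05 there, against 20.4, 20.9, 19.0 and 17.6% of genes. The log2 difference of the muscle share ran from -0.36 to 1.68 in males, -0.36 to 1.91 in females and -2.15 to -1.16 between the sexes.

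The fast share, KO minus WT in females, was -0.836 percentage points and became 17.9 with myosin heavy chains only, 13.9 with troponins only and 7.28 without *Myl1*. Females minus males it was 1.13 and became -19.2, -20.9 and -8.14. These 3 settings leave out *Myl1*, so libraries with almost no muscle RNA weigh as much in them as the others. In female WT 1, female WT 4 and female KO 1 the heavy chains summed to 0.0286, 0.0950 and 0.872 TPM. *Myh7* took 76.1, 55.2 and 41.5% of these sums. In the libraries with *Ckm* of at least 10 TPM it took 0.234 to 12.8%. The shifts are thus ratios of values near 0 in part and do not measure a difference in fibre type. Leaving out 1 library moved the fast share difference from -1.75 to 0.381 in males, from -2.56 to -0.0678 in females and from 0.478 to 1.81 between the sexes. The ratios to *Ckm* with 1 library left out, and settings without *Myl1* or without the transcript that took 16.5% of female WT 4 were chosen after seeing the data. With that transcript removed the muscle share of female WT 4 was 0.0106%, no longer the lowest.

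Median-of-ratios scaling moved the median of all genes in males from 0.16 to 0.0025 and that of the members from 0.51 to 0.35, with 32 of 34 above 0. The prefix covariate moved the median of the members to 1.35 in males, 2.75 in females, 2.02 over both sexes and 2.28 for the difference of effects. The number of all genes called over both sexes, 358, was 12 with the prefix covariate, 54 with no TPM minimum, 177 with a minimum of 5, 60 with the block and 31 to 1055 with 1 library left out (31 without male KO 3, 1055 without male WT 2). That between the sexes, 547, was 93 with the prefix covariate, 262 with no minimum, 290 without mitochondrial transcripts and 194 to 1020 with 1 library left out (194 without male KO 2, 1020 without female KO 2). Depth is unknown, so levels below about 1 TPM have no stated precision.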
